A study of Mus musculus with 8 samples.

Results

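Mouse chromosome 13 carried 646 of the 12594 genomic regions that the authors deposited as differing in CMS-IP signal after loss of Ogt. The members are all lines with chromosome 13 in the 2 deposited lists: 477 from the list of regions higher in the knockout and 169 from the list of lower regions. Higher lines made up 73.8% of them, against a background of 68.1% of the lines on the other 18 autosomes. The chromosome was chosen by these counts of higher and lower lines, so they are a description and no test of them is given.

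The cells were mouse embryonic stem cells with the genotype Ogt fl/fl in every group, grown on mitomycin-treated embryonic fibroblast feeders and sorted as live stem cells. Cells given 4-hydroxytamoxifen (4-OHT) for 6 days formed the Ogt iKO groups, for which cells positive for the YFP reporter were sorted. Control cells had the same floxed alleles and no 4-OHT. Each condition gave 2 CMS-IP libraries and 2 input libraries, 8 samples in 4 groups. The labels do not give the driver of the recombinase, whether the line is 1 clone, or whether the replicates were separate cultures, and 4-OHT and YFP sorting went with the knockout.

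CMS-IP maps 5-hydroxymethylcytosine, the base that TET dioxygenases make from 5-methylcytosine, mostly at CG dinucleotides. Bisulfite turns it into cytosine 5-methylenesulphonate, which an antibody recovers. OGT, the O-GlcNAc transferase, binds TET proteins, and in embryonic stem cells 5-hydroxymethylcytosine is common in gene bodies and at enhancers. Mouse chromosomes have the centromere at one end, so positions on chromosome 13 run from the centromeric to the distal end.

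The lists hold positions only, with no depth, fold change, p-value or value per sample. No replicate error can be given, neither the cell type nor the loss of Ogt could be checked in them, and all differences below are descriptions without a test. Intervals on shares are 95% Wilson intervals and cover counting error only.

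Start sites covered by a region are the members that can be read as sequence. On chromosome 13, 1527 annotated starts of 1287 genes were searched. The 300-base windows around 10 starts of 9 genes (250 bases before the start and 50 after) overlapped a region. Of these genes, 7 had a higher region and 2, Ddx4 and Mak, a lower one. The 250 bases before the start are shown for the 5 windows with the largest overlap, so that the sequence under these gains and this loss can be read directly. Sequences are from RefSeq, build GRCm38.p6, 5′ to 3′ on the gene's strand, with each CG in capitals.
Mef2c, chr13:83573357-83573606, plus strand: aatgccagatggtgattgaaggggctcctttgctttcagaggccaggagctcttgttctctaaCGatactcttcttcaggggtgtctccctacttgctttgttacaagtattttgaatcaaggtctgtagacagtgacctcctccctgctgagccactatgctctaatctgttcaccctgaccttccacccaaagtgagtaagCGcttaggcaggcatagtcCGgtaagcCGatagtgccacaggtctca
A430090L17Rik, chr13:114151593-114151842, minus strand: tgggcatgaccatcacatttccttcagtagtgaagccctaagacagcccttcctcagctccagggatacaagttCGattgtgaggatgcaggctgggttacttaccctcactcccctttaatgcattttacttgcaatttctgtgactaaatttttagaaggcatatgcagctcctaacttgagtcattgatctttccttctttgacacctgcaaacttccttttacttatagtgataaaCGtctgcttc
Gm33197, chr13:57246456-57246705, minus strand: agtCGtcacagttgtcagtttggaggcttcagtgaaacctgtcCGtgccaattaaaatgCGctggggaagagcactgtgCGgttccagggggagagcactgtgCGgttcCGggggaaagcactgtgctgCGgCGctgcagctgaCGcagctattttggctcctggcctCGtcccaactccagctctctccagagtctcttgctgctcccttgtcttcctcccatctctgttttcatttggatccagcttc
Polk, chr13:96519188-96519437, minus strand: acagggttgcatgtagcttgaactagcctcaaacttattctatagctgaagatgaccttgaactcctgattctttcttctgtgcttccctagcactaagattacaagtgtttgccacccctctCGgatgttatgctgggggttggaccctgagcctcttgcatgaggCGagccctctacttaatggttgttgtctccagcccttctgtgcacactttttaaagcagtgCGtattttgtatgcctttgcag
Ddx4, chr13:112652311-112652560, minus strand: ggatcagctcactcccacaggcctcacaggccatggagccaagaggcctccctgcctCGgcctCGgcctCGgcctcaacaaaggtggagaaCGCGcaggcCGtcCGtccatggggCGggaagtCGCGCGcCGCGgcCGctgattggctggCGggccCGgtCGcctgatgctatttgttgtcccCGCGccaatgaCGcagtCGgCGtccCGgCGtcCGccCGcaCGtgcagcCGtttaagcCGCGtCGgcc

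The 4 printed stretches under higher regions held 4 CG dinucleotides at Mef2c, 2 at A430090L17Rik, 10 at Gm33197 and 3 at Polk. Over all 32851 such stretches of the table the median was 6 (interquartile range 2 to 16), and 92.1% held at least 1 CG. Gm33197 was above that median and the other 3 were below it. The higher starts that are not printed held 5 (Gm34276), 7 (Gm33045) and 8 and 7 (2 starts of Gm31630). The Ddx4 stretch, under a lower region, held 31 CG and was 70.4% G or C, and 95.4% of all stretches held as many or fewer. Mak, the other gene with a lower region at a start, held 4 CG, as many as Mef2c, so the 2 lower starts did not share a CG content. Ddx4 encodes the germ cell RNA helicase also called Vasa. CG reads the same on both strands, so 1 search covers both.

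The Mef2c start lies inside the gene (chromosome 13, 83504017 to 83667079), at an alternative start. It fell in a higher region of 4399 bp (83571389 to 83575787), the fifth widest of the chromosome's higher list. Mef2c is a MADS-box transcription factor of muscle, heart and neurons. The Polk start is also internal to its gene (96480687 to 96542579), which encodes a translesion DNA polymerase, and its higher region spanned 438 bp (96518962 to 96519399). A second higher region of 1256 bp lay in Polk at 96534726 to 96535981. The noncoding gene A430090L17Rik starts inside the span of Arl15, in a higher region of 3190 bp (114149686 to 114152875). The lower region at the Ddx4 start spanned 1402 bp (112651458 to 112652859), and a higher region of 813 bp lay inside the same gene at 112644149 to 112644961. Mak, named as the male germ cell-associated kinase, had a lower region of 413 bp (41070073 to 41070485) that covered 20 of the 250 bases before an internal start.

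Of 32 annotated microRNA hairpins on the chromosome, 1 lay in a region. It was Mir582 (109324744 to 109324824), within Pde4d, in a higher region of 1027 bp (109324033 to 109325059), and it is named after its position was seen. Its mature products are shown with the seed, bases 2 to 8, in capitals, because this is the one microRNA whose own sequence lies under a region.
mmu-miR-582-5p: aUACAGUUguucaaccaguuac
mmu-miR-582-3p: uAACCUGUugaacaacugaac
The lists say nothing about the level of this microRNA.

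Chromosome 13 had both more higher regions and fewer lower regions per megabase than the other autosomes. It held 4.07 higher regions per Mb, the second highest value of 19 autosomes after chromosome 19 (4.53). It held 1.44 lower regions per Mb, the third lowest after chromosomes 14 (1.36) and 3 (1.41). At the densities of the other 18 autosomes together, its 117 Mb of annotated span would hold 408 higher and 191 lower regions. The observed numbers were thus 69.1 more and 22.4 fewer. The ratio of densities was 1.17 for higher regions (95% interval 1.07 to 1.28) and 0.883 for lower regions (0.757 to 1.03).

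The share of 73.8% (95% Wilson interval 70.3 to 77.1%) was the second highest among the autosomes. Chromosome 19 had a slightly higher share, 73.9% (264 of 357 regions), and chromosome 10 had 71.9%. The lowest share was 63.4%, on chromosome 7. The intervals of 12 of the other 18 autosomes overlapped that of chromosome 13. The excess is used below: the number of higher regions minus the number expected at the share of the other autosomes, 68.1% for chromosome 13. That share was recomputed for each autosome, and again when regions were merged or chosen by width. The excess was 37.3 regions out of 646, the largest of the 19 autosomes, followed by 26.0 on chromosome 10. Counted as clusters, with regions of a list within 100 kb merged, it was 24.2.

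**Figure D1:**
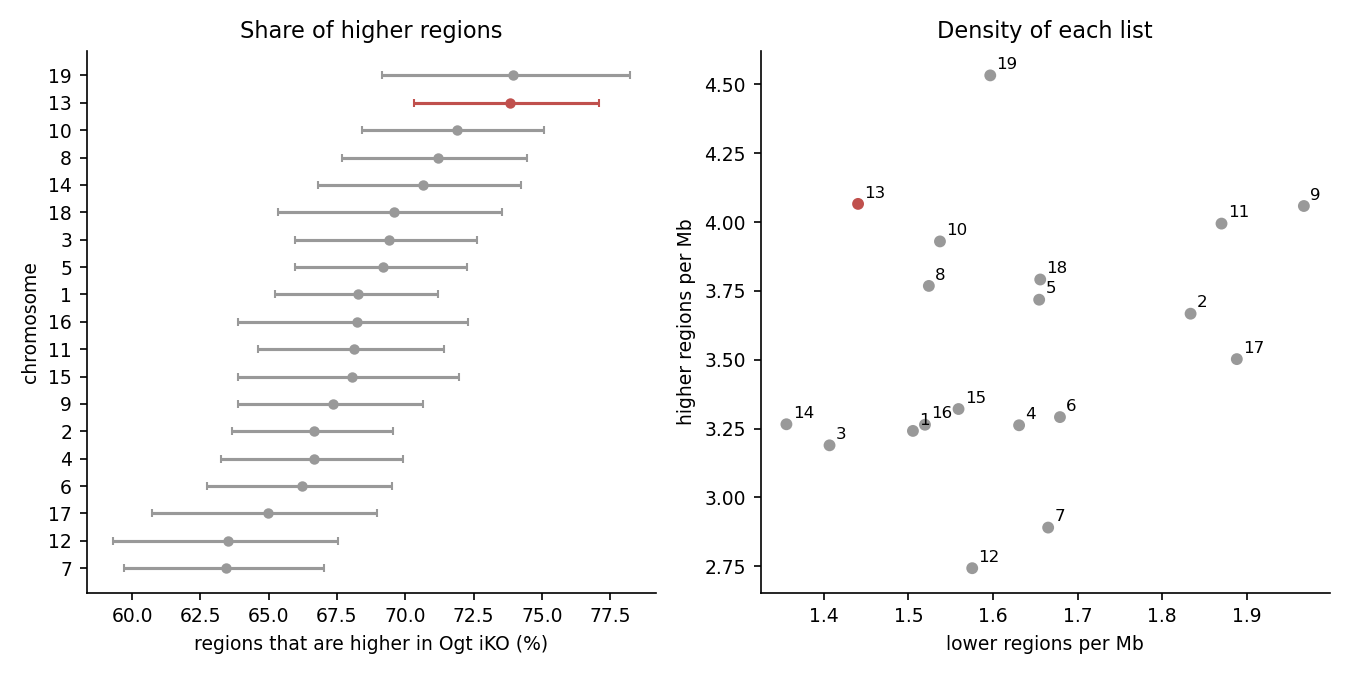
The left panel plots, for each of the 19 autosomes, the percentage of regions that are higher in Ogt iKO cells, with bars for the 95% Wilson interval. The right panel plots higher against lower regions per Mb, each point an autosome; chromosome 13, in red, lies at 4.07 higher and 1.44 lower regions per Mb.

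Windows above the share of the other autosomes lay along most of the chromosome. In number, 22.8 of the net excess of 37.3 came from 90 to 115 Mb, a stretch picked after its values were seen. Of 24 windows of 5 Mb, 18 (75.0%) had a share above that of the other autosomes. On the other autosomes 239 of 474 windows (50.4%) were above the corresponding share. Chromosome 19 had a larger percentage than chromosome 13, 76.9% (10 of 13 windows), and chromosome 8 had 69.2% (18 of 26). Higher regions outnumbered lower ones in all 24 windows, as they did in 425 of 474 windows elsewhere (89.7%) and in all 13 windows of chromosome 19. Windows above the line added 52.3 regions and those below it took away 15.0. The 5 windows with the largest excess held 46.4% of the positive sum, 24.2 regions.

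From 90 to 115 Mb, 5 adjoining windows held 144 higher and 34 lower regions, a share of 80.9% (95% Wilson interval 74.5 to 86.0%). This stretch was picked after its values were seen. The window at 95 to 100 Mb had the largest excess, 5.73, with 35 higher and 8 lower regions. Its genes with most regions were Iqgap2, a scaffold of the cytoskeleton (4 higher, 0 lower), Pde8b, a cyclic AMP phosphodiesterase (3 and 0), and Arhgef28, a guanine nucleotide exchange factor (2 and 0). The window at 110 to 115 Mb followed with 5.69 (37 higher, 9 lower). It holds Arl15, a small GTPase (5 and 1), Ndufs4, a subunit of respiratory complex I (3 and 0), and Ddx4 (1 and 1). At 100 to 105 Mb the excess was 4.18 (28 higher, 7 lower), with Mast4, a microtubule-associated kinase (6 and 1), Nln, a peptidase (1 and 1), and Adamts6, a secreted metalloprotease (0 and 1). Without these 5 windows, an alternative chosen after seeing the data, the excess fell to 14.5 and the share to 71.2%.

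Apart from this stretch, 2 windows in the first 40 Mb stood among the 5 with most. The window at 35 to 40 Mb held 21 higher and 3 lower regions, an excess of 4.66. Its genes with most regions were Fars2, the mitochondrial phenylalanyl-tRNA synthetase (4 and 0), Rreb1, a zinc finger transcription factor (2 and 1), and Bloc1s5, a subunit of a complex for lysosome-related organelles (1 and 0). The window at 25 to 30 Mb held 21 higher and 4 lower regions, an excess of 3.98. Of these, 9 higher and 1 lower lay in Cdkal1, a tRNA-modifying enzyme, 2 higher in Dcdc2a and 1 higher in Mrs2, a mitochondrial magnesium channel. The window at 65 to 70 Mb had the same counts of 21 and 4.

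Windows below the line alternated with these in the first 55 Mb. The largest deficit, -4.91, was at 40 to 45 Mb, with 23 higher and 18 lower regions, so the deficit went with many lower regions and not with few higher ones. It holds Phactr1 (4 and 0), a regulator of protein phosphatase 1 and actin, as well as Jarid2 (1 and 2), a cofactor of Polycomb complex PRC2, and Ranbp9 (1 and 2). At 20 to 25 Mb, where 140 protein-coding genes are centred, 13 higher and 11 lower regions gave -3.34. Its genes with most regions were Elmo1, which acts in cell engulfment and migration (2 and 1), Carmil1, a regulator of actin capping (0 and 2), and Gpld1, a phospholipase that cleaves GPI anchors (0 and 2). At 30 to 35 Mb, 11 higher and 9 lower regions gave -2.61, with Exoc2 (2 and 0), Gmds (1 and 1) and 4933417A18Rik (1 and 0).

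**Figure D2:**
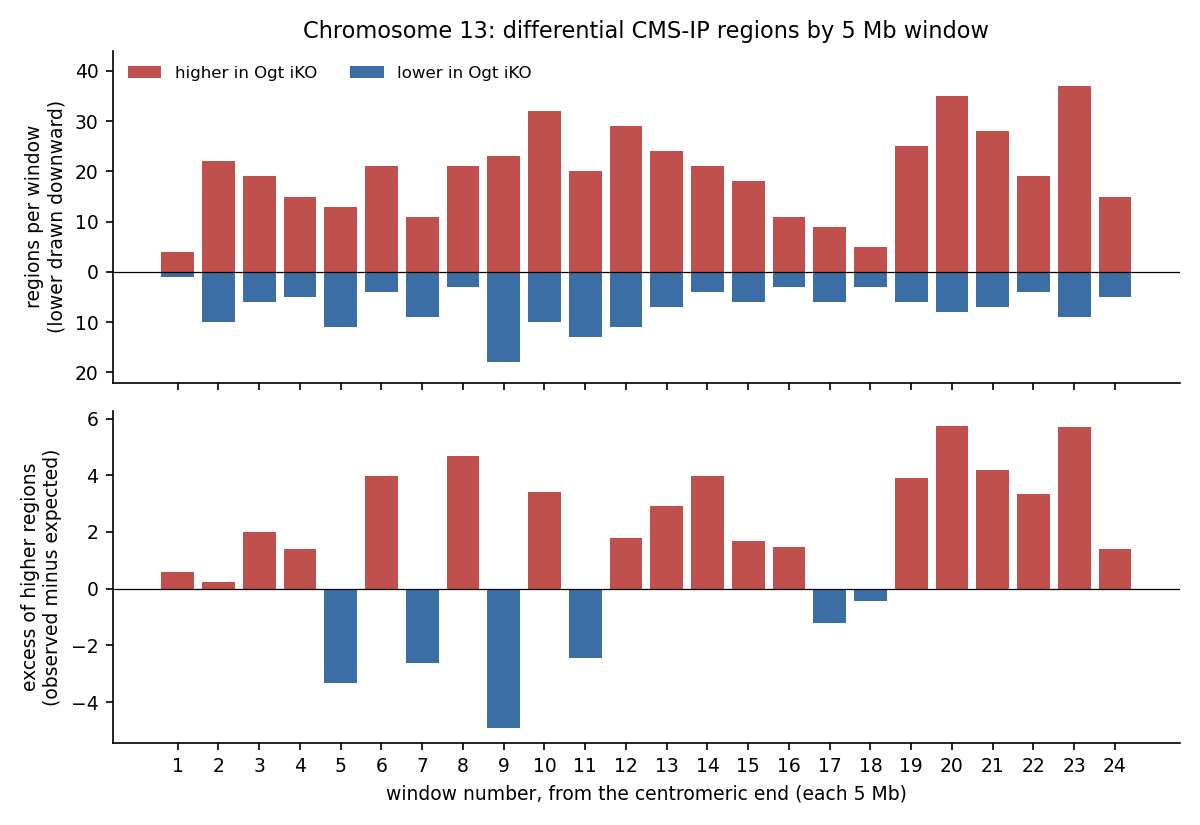
Top, number of higher regions (upward) and lower regions (downward) in each 5 Mb window of chromosome 13, numbered from the centromeric end. Bottom, excess of higher regions in each window over the number expected at the share of the other autosomes; 18 of 24 windows are above 0, and windows 19 to 23 (90 to 115 Mb) together reach 22.8.

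The annotated span was also split at its middle. The proximal part held 240 higher and 104 lower regions (69.8%, near the 68.1% of the other autosomes as a whole). The distal part held 237 and 65 (78.5%). The number of higher regions was thus nearly the same in both parts, and the distal part had fewer lower ones. The distal share was the highest among the 19 autosomes, above 77.3% on chromosome 19 and 75.9% on chromosome 10. The difference between the parts, 8.71 percentage points, was exceeded on chromosomes 7 (9.37) and 10 (8.93). On the other autosomes it ranged from -10.6 to 9.37.

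The excess lay among the narrow regions, when each width class was set against the same class on the other autosomes. Regions at the smallest width of the lists, 200 bp, were higher in 69 of 89 cases on chromosome 13 (77.5%, 95% Wilson interval 67.8 to 85.0%), against 63.6% on the other autosomes. From 201 to 307 bp the shares were 62.7% (54.7 to 70.0%) and 52.7%. From 308 to 552 bp they were 75.4% (67.6 to 81.8%) and 65.2%. In each of these 3 classes chromosome 13 was above the other autosomes by 12.4, 14.9 and 14.0 regions respectively.

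Among wider regions the chromosome was close to or below the others. From 553 to 937 bp, 77.2% were higher (69.5 to 83.5%) against 75.2% elsewhere, an excess of 2.79 regions. At 938 bp and wider the share was 78.9% (71.3 to 85.0%) against 82.0%, a deficit of -4.04 regions. With only regions of 453 bp or wider, the median width over both lists, the excess over the other autosomes was 6.55 in place of 37.3.

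Higher regions of chromosome 13 had a median width of 489 bp (interquartile range 249 to 889 bp), the lowest of the 19 autosomes, although chromosome 7 was at 491 bp. Lower regions had a median of 339 bp (234 to 747 bp), inside the range of 272 to 365.5 bp on the other autosomes. The upper quartile of 747 bp was the highest for lower regions, against 487 to 725 bp elsewhere. Higher regions were thus comparatively narrow on this chromosome. Lower regions were comparatively wide in the upper quartile and not in the median. In base pairs, 78.4% of the covered sequence was higher (344 kb of higher and 94.4 kb of lower regions), against 76.9% on the other autosomes.

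**Figure D3:**
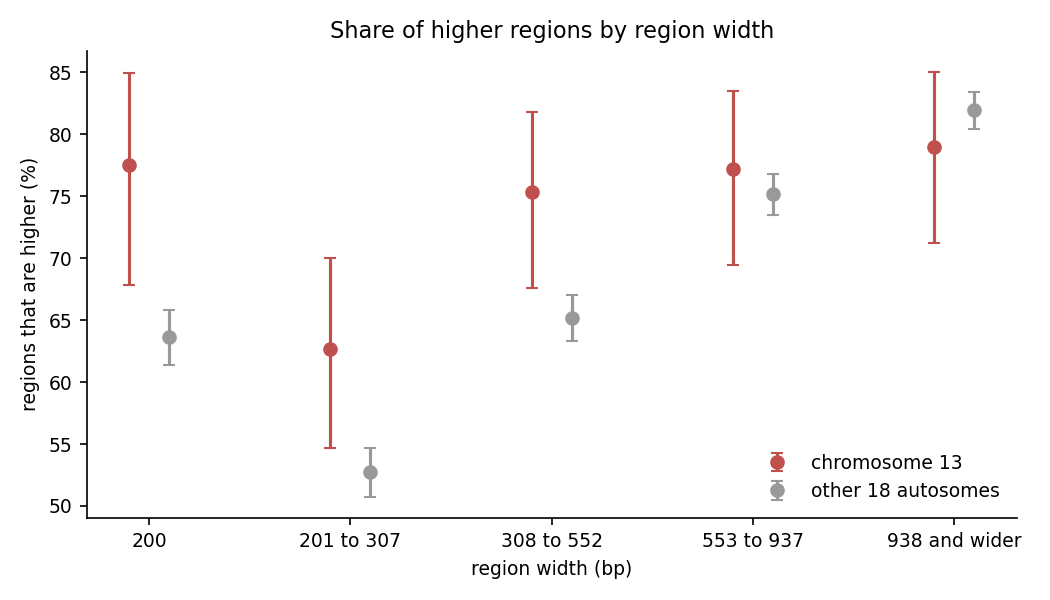
Percentage of regions that are higher in Ogt iKO cells, in 5 classes of region width, for chromosome 13 (red) and the other 18 autosomes together (grey), with bars for the 95% Wilson interval. Chromosome 13 is above the other autosomes in the 3 narrowest classes and below them at 938 bp and wider (78.9% against 82.0%).

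The 5 widest higher regions of the chromosome ranged from 4399 to 5447 bp. The widest lay in Heatr1, a factor of ribosome biogenesis, at 12417671 to 12423117. The next, 5411 bp at 44007945 to 44013355, overlapped the end of the noncoding gene Gm33489, and the third, 4804 bp at 52338518 to 52343321, overlapped no annotated gene. A region of 4530 bp at 44944315 to 44948844 lay in Dtnbp1, the dysbindin gene, and the region in Mef2c completed the 5. Heatr1 is short, at 43.5 kb, and held 2 further higher regions.

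Lower regions were narrower at the top of the list. The widest, 2820 bp at 109779237 to 109782056, lay in Pde4d. Of the next 4, a region of 2645 bp (51080431 to 51083075) had its midpoint 16181 bp from Spin1, and one of 1709 bp (51118609 to 51120317) lay in Spin1, a reader of histone methylation. Regions of 2514 bp (54844016 to 54846529) and 1989 bp (48335461 to 48337449) lay between genes, with Tspan17 and Id4 the nearest protein-coding genes. Id4, an inhibitor of DNA binding, was 70427 bp away. At 2 kb or wider there were 28 higher regions (5.87% of the list, against 6.93% on the other autosomes) and 3 lower regions (1.78% against 1.37%).

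By position relative to genes, the excess in number of regions was largest inside genes, the class with most regions. The gap in share was widest near gene ends, the class with fewest regions. Midpoints inside a gene span, more than 1 kb from either end, were higher in 257 of 330 cases (77.9%, 95% Wilson interval 73.1 to 82.0%), against 70.1% inside genes of the other autosomes. Set against the same class elsewhere, this was 25.5 regions more than expected. Near gene ends, 41 were higher and 14 lower (74.5%, 95% Wilson interval 61.7 to 84.2%, against 61.5%), an excess of 7.16. Chromosome 19 was close in both classes, with 77.4% inside genes and 76.7% near gene ends. Chromosome 16 had 74.2% near gene ends. Between genes, 179 were higher and 82 lower (68.6%, against 66.3%), an excess of 5.97.

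Within the lower list, chromosome 13 had the highest intergenic share of the 19 autosomes, 48.5%, against 27.9 to 43.6% elsewhere, and the lowest share inside genes, 43.2%, against 48.0 to 61.4%. Higher regions were inside genes in 53.9%, and values on the other autosomes ran from 51.7 to 62.9%. The chromosome had 19.3 genes per Mb, close to the median of 18.6 on the other autosomes. Around annotated starts, 14 higher and 6 lower regions had their midpoint within 1 kb (70.0% higher), against 151 and 168 on the other autosomes (47.3%). These 20 regions are few, and chromosome 16 had a larger share near starts, 81.8%.

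Gene by gene, 142 protein-coding genes had a surplus of higher over lower regions, most of them of 1 region. Of 829 protein-coding genes on the chromosome, 187 (22.6%) held at least 1 region midpoint, counted in the gene span plus 1 kb on either side. A higher region was found in 161 genes (19.4%, against 15.9% on the other autosomes) and a lower region in 57 (6.88%, against 8.93%). In 130 genes all regions were higher, in 26 all were lower, and 31 held both. The surplus was 1 in 101 genes, 2 in 27 and 3 or more in 14. It was 0 in 14 and negative in 31.

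The chromosome's surplus of 308 came in part from protein-coding genes, which held 242 higher and 70 lower regions (a surplus of 172, or 55.8%). The rest, 235 higher and 99 lower, lay outside them. The 14 genes with a surplus of 3 or more held 60 higher and 5 lower regions, 17.9% of the surplus. The naming rule took 10 of them, with 48 higher and 5 lower regions (14.0%). This limit of 10 split a tie of 6 genes at a surplus of 3, of which Dapk1 and Gli3 were taken in alphabetical order and 4 were not. Outside these 10 genes the share of higher regions was still 72.3%. The median length was 15.9 kb for all 829 genes, 71.8 kb for those with a region and 439 kb for these 10.

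Cdkal1 (29191746 to 29855683) led with 9 higher regions and 1 lower. The higher regions were 200 to 1653 bp wide and ran from 29212098 to 29757416. The 1 lower region, 814 bp at 29769675 to 29770488, was the one nearest the distal end of the gene, so all higher regions lay to its centromeric side. Without Cdkal1 the excess of the chromosome was 35.1.

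Mast4 and Pde4d were next in surplus. Mast4 held 6 higher regions of 301 to 1326 bp and 1 lower region that fell in the 1 kb extension of its span. Pde4d, a cyclic AMP phosphodiesterase gene of 1302 kb, held 6 higher and 2 lower regions. In Pde4d both directions were close: the lower region of 2820 bp lay between higher regions at 109769437 to 109770039 and at 109783378 to 109783700.

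Arl15 held 5 higher regions, of which 3 were wider than 2 kb (2589, 2281 and 3190 bp), and 1 lower region of 226 bp. Adgrv1, a very large adhesion receptor, Fars2, Iqgap2 and Phactr1 held 4 higher and 0 lower regions each. In Adgrv1, 3 of the 4 lay between 81560744 and 81568787. Dapk1, a calcium-calmodulin-dependent kinase of cell death, held 3 higher regions of 580 to 1963 bp and 0 lower. Gli3, the transcription factor that carries Hedgehog signals, held 3 higher and 0 lower regions, all between 15660687 and 15720770 in the distal part of its span. Heatr1, Ndufs4, Pde8b and Rasgrf2 had the same counts of 3 and 0. Over all 14 genes with a surplus of 3 or more, regions per 100 kb of gene ranged from 0.615 in Pde4d to 6.89 in Heatr1.

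Genes with lower regions were fewer. Ryr2, the calcium release channel of heart muscle, held 4 lower and 2 higher regions, mostly narrow: 5 of the 6 were 251 bp or less, and 1 lower region reached 1450 bp. Carmil1, Gpld1, Spin1 and Zfp808 each held 2 lower and 0 higher regions. In Zfp808, a zinc finger gene, they were 923 and 1006 bp wide, and in Spin1 they were neighbours of 1709 and 200 bp. These 5 genes had the most negative surplus, -2 each.

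The other genes with 2 lower regions held higher ones too. Jarid2 had lower regions of 704 and 200 bp and a higher one of 200 bp at 44866992 to 44867191. Amph, a synaptic vesicle endocytosis protein, Ranbp9 and Agtpbp1, which removes glutamates from tubulin, had 2 lower and 1 higher each. Dip2c had 2 of each, and Spock1, a proteoglycan, had 4 higher and 2 lower. In Spock1 the higher region of 1935 bp (57420378 to 57422312) overlapped the end of the gene with the lower coordinate.

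**Figure D4:**
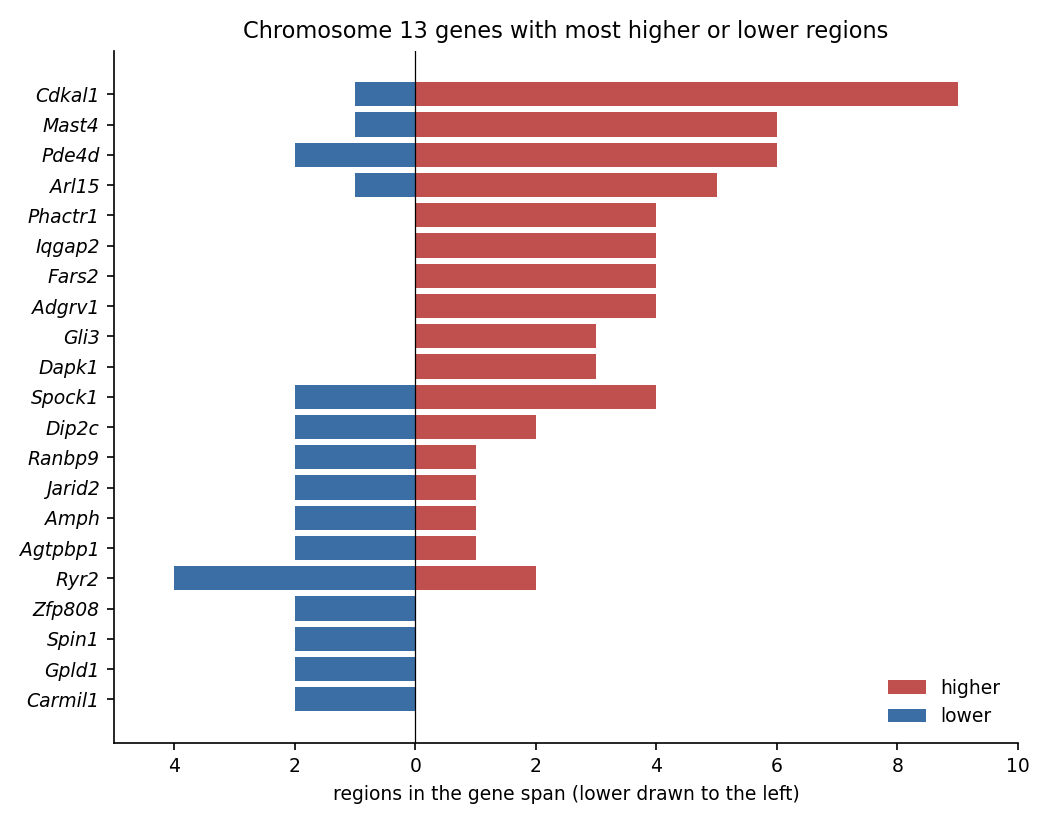
Number of higher regions (bars to the right) and lower regions (bars to the left) in the span, plus 1 kb on either side, of 10 genes with the largest surplus (a tie at 3 was taken in alphabetical order) and of all 12 genes with 2 or more lower regions on chromosome 13. Cdkal1 reaches 9 higher regions and Ryr2 4 lower ones; Pde4d is in both sets.

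Lists of chromosome 13 genes with a shared role were counted next. These were drawn up with earlier results of these data known, list members differ in length, and the median surplus was 0 in each list, as in all 829 genes. Of all 829 genes, 22.6% held a region and 77.5% of the regions counted in them were higher, with a region in 2 genes counted in both; their median length was 15.9 kb. Among 26 secreted signals, receptors and their transducers, 10 (38.5%, against 22.6% of all genes) held a region, in all 10 a higher one (against 19.4% of all genes). They held 23 higher and 6 lower regions (79.3% higher), and the median length of the list was 62.0 kb. They were Mast4, Pde4d, Elmo1, Ntrk2, the BDNF receptor (3 and 1), Ror2, a Wnt receptor (1 and 1), and F2rl2, Fgf10, Il31ra, Map3k1 and Rasa1 with 1 higher and 0 lower each. The other 16, Bmp6, Inhba, Ptch1 and Fst among them, held 0.

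Of 21 genes of ion channels, receptors and synapses, 12 (57.1%, against 22.6% of all genes) held a region, with 25 higher and 7 lower regions. The share of higher regions, 78.1%, was near the 77.5% of all genes, and the median length of the list was 173 kb. Besides Ryr2, Amph, Ntrk2, Iqgap2 and Phactr1, these were Rasgrf2 (3 and 0), Homer1, a postsynaptic scaffold (2 and 0), Adcy2, an adenylate cyclase (2 and 0), and Actn2, Map1b, Mctp1 and Sv2c (1 and 0 each). Ryr2 and Amph were the 2 of them with more lower than higher regions.

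Developmental transcription factors, in contrast, were short, with a median of 9.97 kb, and Gli3, with 3 higher regions, and Mef2c, with 1, were among the few of 24 that held a region. Foxc1, Sox4, Tfap2a, the Irx genes and Isl1 held 0. Because the regions that were tested are unknown, a count of 0 does not show an unchanged gene.

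Of 20 chromatin, methylation and repair genes, 10 (50.0%, against 22.6% of all genes) held a region, with 10 higher and 6 lower (62.5% higher), in a list with a median length of 58.3 kb. Higher regions lay in Fancc, Polk and Uimc1 (2 each), which act in DNA repair, and, among others, in Msh3 and Parp8 (1 each). Lower regions lay in Spin1 and Jarid2 (2 each), Cdk7, a kinase of transcription (1), and Tent2, a poly(A) polymerase (1).

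Among 16 genes of extracellular matrix, adhesion and junctions, 5 held a region (31.2%, against 22.6% of all genes), in a list with a median length of 63.8 kb. Itga1, a collagen-binding integrin, held 2 higher regions, Vcan, the large proteoglycan versican, Omd and Adamts16 held 1 higher each, and Adamts6 held 1 lower.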

How the data were processed

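CMS-IP and input libraries were made from Ogt iKO and control cells. The deposited files are 2 region lists, one per direction of change, each line a chromosome, start and end; their names give the mm10 build. The names write the knockout as OgtiTKO; it was taken to be what the labels call Ogt iKO, and every value rests on that reading. Their coordinates are the only values that the authors deposited, and 0 columns of values per sample were used. The submitters' processing notes name Bismark and MACS2 with no role or order. The differential test, its threshold and the use of inputs, spike-ins and replicates are not given in the sources used here. Depth is therefore unknown.

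All lines with chromosome 13 were taken; starts were read as 0-based and are printed 1-based. Regions were placed by midpoint in 5 Mb windows from coordinate 0 and in gene spans of the RefSeq table of GRCm38.p6, extended by 1 kb. Annotated span runs from the first to the last gene or region. Start sites came from a promoter table that covers 725 of the 829 protein-coding genes. Genes were named by rule: the 10 with the largest (ties by number of regions, then alphabetical) and 5 with the most negative surplus, those with 2 or more lower regions, those at the 5 widest regions of each list, the 3 with most regions in the 5 windows of largest excess and 3 of largest deficit, and members of the gene lists with a region. 1 listed symbol was not in the table and was dropped. Some genes that the rule selected are not reported here. The chromosome, the rule and the lists were chosen with earlier results of these data known. Because no value per sample exists, no test was run. Python 3.11.15, numpy 2.4.6, scipy 1.17.1, pandas 2.3.3 and matplotlib 3.10.9 were used, and counting was tested on simulated data.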

Additional observations from a re-analysis of the deposited data

How the results depend on the processing

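Across 10 results and 40 recomputed values, 26 stayed within the 95% interval of the value reported, 14 moved beyond it and 0 changed direction. Median widths, shares inside genes and the share held by the 5 windows cannot fall below 0, so they could not change direction. For the share of higher regions, a change of direction meant that lower regions outnumbered higher ones, not that the share fell below that of the other autosomes. The share of higher regions became 67.2% when regions of a list within 100 kb were merged into clusters. Against the other autosomes merged in the same way, the excess was 24.2. The share was 79.2% among regions of 453 bp or wider, and 78.4% in base pairs. These shares are not comparable with the 68.1% of the other autosomes, which counts unmerged regions of all widths. The excess became 6.55 among regions of 453 bp or wider and 14.5 without the 5 windows that start at 90 Mb, the latter chosen after seeing the data. The 5 windows with most held 28.5% of the positive excess with 2 Mb windows and 83.8% with 10 Mb windows, since smaller windows are more numerous. Higher regions were inside genes in 59.5% by any overlap, 47.0% with protein-coding genes alone and 41.5% with gene ends of 5 kb, where the lower value was 31.4%. The median width of higher regions was 761 bp for clusters with widths summed and 575 bp without regions at the smallest width, and that of lower regions was 430 bp for clusters. Clusters sum several regions, and the other width change removes the narrowest regions by construction; the cause of the other moves was not tested. No paired analysis was possible because the lists give coordinates without values of single samples, so no replicate could be left out either.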

Other observations

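Chromosome 13 carries several families of duplicated genes in tandem, and region counts differed between them. Of all 829 protein-coding genes 22.6% held a region, and their median length was 15.9 kb. Median lengths were 0.488 kb for histones, 0.927 kb for vomeronasal and 0.954 kb for olfactory receptors. They were 5.74 kb for cathepsins, 7.50 kb for prolactins, 11.3 kb for serpins and 42.1 kb for Naip. The part of gene length in the counts was not tested. Among 53 core and linker histone genes, H2bc22 held the 1 higher region, and the block that spans them (21715711 to 23934913) held 7 higher and 2 lower regions. The 25 prolactin genes held 0, and 1 higher region lay in the 1.06 Mb block of 22 of them (27094189 to 28151595). Vomeronasal receptor, olfactory receptor, cathepsin and Naip genes held 0 regions in their spans. The block of 10 cathepsins (60798250 to 64370772) held 14 higher and 5 lower regions, all outside the cathepsin genes. This block also holds other genes, Fancc among them. It overlaps the stretch of zinc finger genes given below, so some regions are counted in both. The block of 36 vomeronasal receptors held 2 and 2, that of 12 olfactory receptors 1 and 2, and that of 4 Naip genes 0. The vomeronasal block (22087878 to 23250323) lies inside the histone block, so its regions, with both lower ones, are counted in both blocks. Of 16 serpin genes, Serpinb6a held 1 higher region, and their block held 2 higher and 1 lower.

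Of 37 zinc finger genes named Zfp, 7 (18.9%, against 22.6% of all protein-coding genes of the chromosome) held a region: Zfp346, Zfp369, Zfp58, Zfp72, Zfp759 and Zfp874a 1 higher each, and Zfp808 2 lower. The stretch of 5.37 Mb that holds 28 of them (62453016 to 67827000) carried 25 higher and 6 lower regions, or 5.77 regions per Mb, near the 5.51 per Mb of the whole chromosome. Reads from near-identical copies can be assigned to the wrong copy, and the part of this in the counts was not tested.

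The longest run of consecutive regions of 1 direction on the chromosome was 16 higher regions, a length reached in more than 1 place. A run from 13351055 to 17718883 includes the 3 in Gli3. Another, from 100738202 to 103294957, includes the 6 in Mast4 and lies within 90 to 115 Mb. Longest runs of higher regions on the other autosomes held 13 to 25. The longest run of lower regions held 3, as on chromosome 19, against 4 to 8 on the others. Of 49 neighbouring pairs under 10 kb apart, 30 were both higher, 4 both lower and 15 of opposite direction. The largest stretch without a region was 2.19 Mb, from 78728927 to 80915820, and it lies within the windows from 75 to 90 Mb, which held 25 higher and 12 lower regions in 15 Mb, the gap included.

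After Mir582, the microRNA hairpins nearest to a region are given as values. The hairpins of Mir449a and Mir449c, in Cdc20b, lay 1107 and 2640 bp from a lower region of 1462 bp (113038731 to 113040192). Mir6943 lay 4759 bp from a higher region, and Mir12184 and Mir1896 lay 5519 and 6627 bp from lower regions. The hairpins of Mir23b and Mir27b, in Aopep, lay 7643 and 7871 bp from a lower region of 200 bp.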
